A study of Mus musculus with 6 samples.

Results

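The genes that flank Mmp9 on mouse chromosome 2 were examined for differences that go with a mutant Mmp9 allele. They were chosen by position and abundance: a gene start between 159940780 and 169955850 on chromosome 2 (GRCm38), which is 5 Mb to either side of Mmp9, and at least 10 counts in 2 or more libraries, with Mmp9 itself left out. This gave 85 genes of the 246 that the annotation places in the window and of 55487 in the whole count table. The other 161 fell below the count rule, and 102 of them had a count of 0 in every library. All 85 passed the filter on low counts and were tested. Of these, 76 are protein-coding, 4 antisense, 3 processed transcripts, 1 a lincRNA and 1 a gene model that awaits experimental support. The genes just inside the count rule were Gm14246, with a second highest count of 10, and Lpin3 and Wfdc3, each with 11. Just outside it were Neurl2, with 9, and Rbpjl and Ube2v1, each with 8.

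At postnatal day 28 the visual cortex was dissected, and its total RNA was sequenced with a stranded kit. The mice, on the strain background B6.CBA/Tar, carried 0, 1 or 2 copies of the UTRmut allele of Mmp9 (B6.CBA Mmp9em1Iimcb/Tar), a mutation in an untranslated region. The 3 genotypes were WT (WT/WT), het (UTRmut/WT) and UTRmut (UTRmut/UTRmut), with 2 libraries each: replicate 1 was a female and replicate 2 a male. The allele is a germline one, with no promoter or cell type restricting it, and the labels name no agent and 1 mutant line. They do not state whether animals were pooled or shared a litter, so a p-value reflects the spread between these 6 samples alone, which may in part be technical. In values below, the female is given before the male, and 1 or 2 mutant copies stand for het and UTRmut.

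A change in 1 gene can be accompanied by changes in its neighbours, because genes along a chromosome share enhancers, chromatin domains and, where they overlap, transcription itself. An effect in cis acts on genes of the same chromosome copy, so its size is expected to grow with the number of mutant copies. The region around Mmp9 holds Slc12a5, which encodes the neuronal chloride exporter KCC2, the transporter that lowers chloride in maturing neurons and so makes GABA inhibitory. The counts are summed over both chromosome copies, so an effect in cis and one in trans cannot be told apart. The mutation and any linked stretch of chromosome inherited with it cannot be told apart either. Nor can fewer cells of a type be told apart from less RNA per cell in bulk tissue.

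Total counts were 9500090 to 11966579 per library, and a count of 0 would allow up to 0.259 to 0.312 CPM (read counts scaled to library size). Mmp9 (ENSMUSG00000017737; 164940780 to 164955850 on the plus strand) was scarce: it had 4 and 9 counts in WT, 9 and 9 with 1 mutant copy, and 8 and 16 with 2. Markers of neurons summed to 4760 and 5040 CPM in WT, 4770 and 4720 with 1 mutant copy, and 5100 and 5140 with 2, those of astrocytes to 4990 to 6260 CPM and those of microglia to 162 to 189 CPM over the 6 libraries. The 12 activity-regulated genes summed to 1330 and 2030 CPM in WT, 1960 and 1970 with 1 mutant copy, and 2330 and 2350 with 2, and the WT female was the lowest. Choroid plexus markers stood at 48.6 CPM in the WT male and at 2.15 to 10 CPM in the other 5 libraries. Blood markers summed to 179 and 232 CPM in WT, 168 and 176 with 1 mutant copy, and 150 and 96.8 with 2. Endothelial markers summed to 49.0 and 51.4 CPM in WT, 42.3 and 44.0 with 1 mutant copy, and 41.1 and 41.2 with 2. In UTRmut against WT, 0 of the 4 tested genes of either list were above 0, and 0 had an adjusted p under 0.05 (edgeR).

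None of the 85 flanking genes passed in UTRmut against WT at an adjusted p under 0.05 (edgeR quasi-likelihood test, Benjamini-Hochberg over 16119 genes), where 0.0062% of all genes tested did. None passed in het against WT (0.0124% of all genes), in UTRmut against het (0.0124%) or in the change per mutant allele (0%). The smallest adjusted p among them was 0.694 (edgeR), for Dbndd2 in UTRmut against WT. At an unadjusted p under 0.05, 4 flanking genes (4.71%) differed between UTRmut and WT against 2.71% of all genes, 3 (3.53%) between het and WT against 2.37%, 2 (2.35%) between UTRmut and het against 2.8%, and 4 (4.71%) per allele against 3.12%. DESeq2 called 0 flanking genes in each of the 4 comparisons, and 0.0171%, 0.0102%, 0.0205% and 0.0102% of all genes.

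As a group the folds were centred near 0. In UTRmut against WT their median log2 fold was -0.014, and 36 of 85 (42.4%) were above 0. Over all genes tested the median was -0.01 with 47.9% above 0, and over the rest of chromosome 2 it was -0.006 with 48.8%. In het against WT the median was -0.027 with 38 genes above 0, in UTRmut against het 0.033 with 49 genes above 0, and per allele -0.007 with 36 above 0. Over all genes tested, 48.9%, 49.7% and 47.8% were above 0 in these comparisons. The comparisons share libraries, so these medians are not independent of each other. In UTRmut against WT, 40.8% of the 76 protein-coding flanking genes were above 0 (median -0.016), against 51.2% of all protein-coding genes tested (median 0.004). Without the WT male, 49 of the 85 flanking genes were above 0. In single libraries, the median level of the flanking genes relative to their mean over the 6 libraries was -0.031 in the WT female and 0.041 in the WT male on the log2 scale. It was 0.00 and -0.016 in het, and 0.004 and 0.021 in UTRmut, so both WT libraries lay outside the range of the mutant ones, on opposite sides.

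Precision varied with abundance. For 49 of the 85 genes the 95% interval of the UTRmut against WT fold lay within 0.5 of 0 on the log2 scale, and the median half-width was 0.3. Folds beyond 0.5 in either direction were seen in 9 genes (10.6%, against 7.62% of all genes tested), 7 of which had a mean of under 25 counts. The exceptions with more counts were Dbndd2 and Tshz2.

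**Figure D1:**
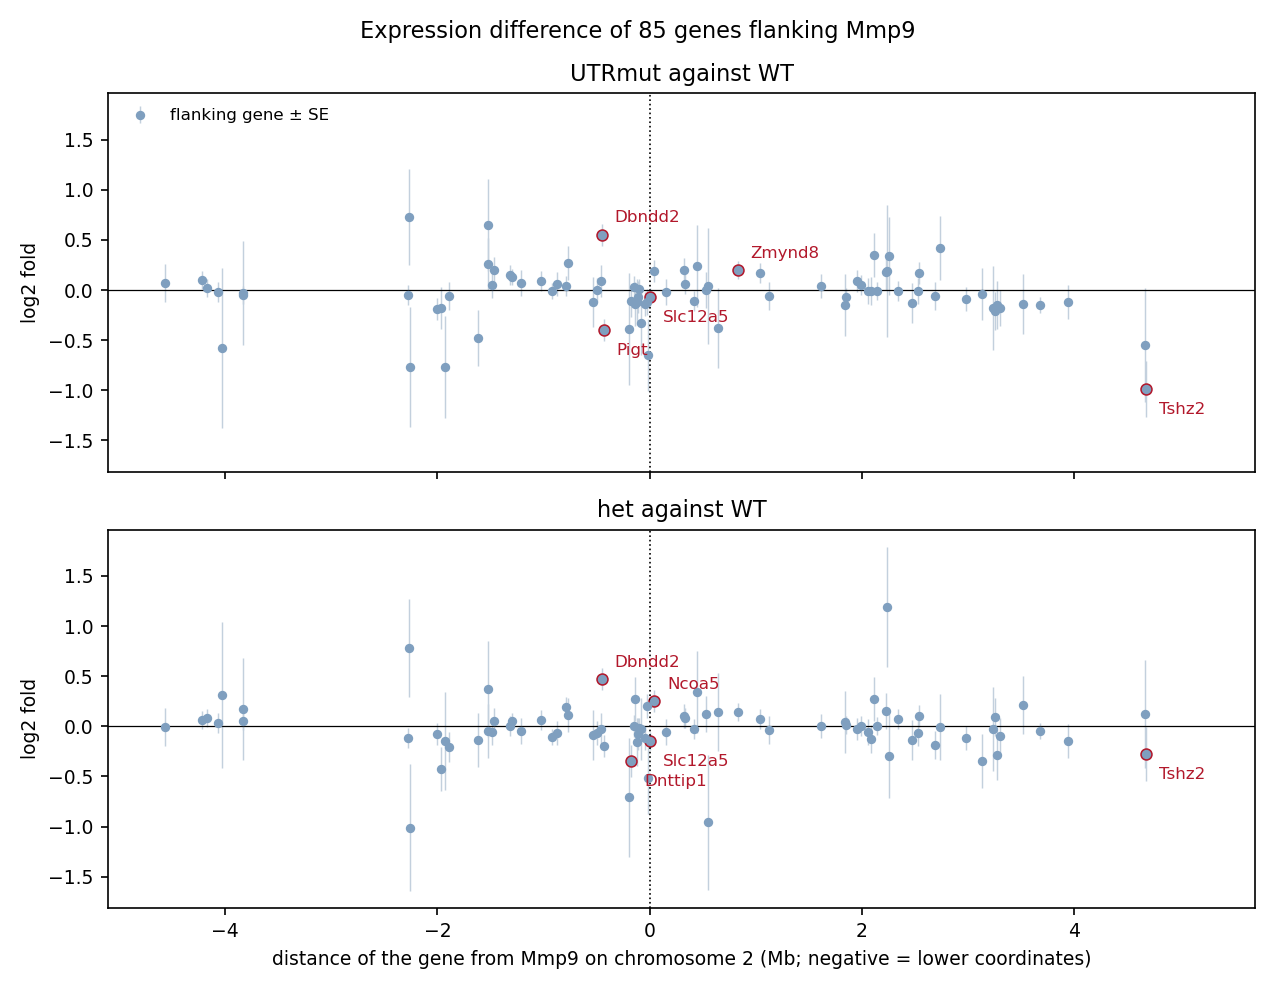
Log2 fold of each of the 85 flanking genes against its distance from Mmp9 in Mb, for UTRmut against WT (upper panel) and het against WT (lower panel). Bars are SE, and red points mark labelled genes. Dbndd2 lies at 0.55 in UTRmut and 0.47 in het, Pigt at -0.40 and Tshz2 at -0.99 in UTRmut, and no gene passed the adjusted threshold.

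**Figure D2:**
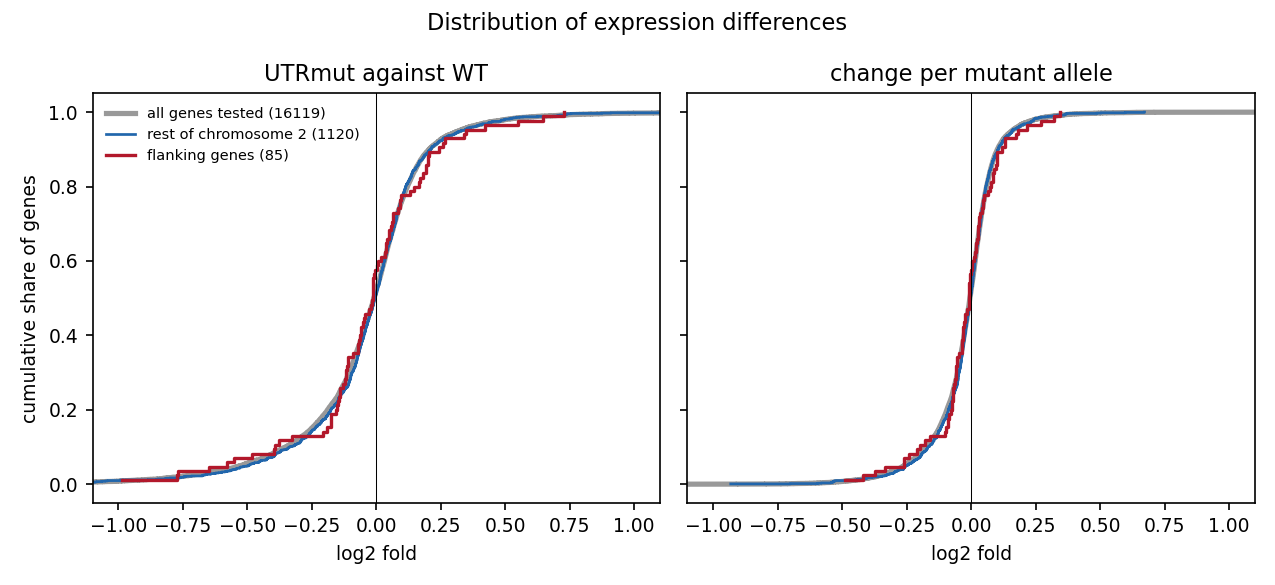
Cumulative share of genes by log2 fold for UTRmut against WT (left) and per mutant allele (right), for all genes tested (grey), the rest of chromosome 2 (blue) and the flanking genes (red). In the left panel the medians are -0.01, -0.006 and -0.014, and 47.9%, 48.8% and 42.4% of the genes lie above 0.

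The closest neighbour, Slc12a5 (chr2:164960802-164999731, plus strand), starts 4.95 kb beyond the end of Mmp9. Its level was 546 and 630 CPM in WT, 552 and 507 with 1 mutant copy, and 590 and 532 with 2. The WT male was the highest library and the het male the lowest, and the UTRmut values lay between the 2 WT values or below them. Mean levels were 588 ± 59.7, 529 ± 31.8 and 561 ± 40.8 CPM for 0, 1 and 2 mutant copies (SD, n = 2 each). On the log2 scale the fold was -0.07 (SE 0.09, 95% interval -0.27 to 0.13) in UTRmut against WT, -0.15 (SE 0.09, -0.35 to 0.05) in het against WT, and -0.03 (SE 0.05) per allele. Without the WT male, or without the UTRmut male, the UTRmut against WT fold turned positive, and over all alternatives it ran from -0.17 to 0.05.

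Ncoa5, a coregulator of nuclear receptors 44.5 kb away on the higher-coordinate side, was 42.0 and 40.8 CPM in WT, 49.4 and 48.7 with 1 mutant copy, and 44.3 and 50.3 with 2. All 4 mutant libraries lay above both WT libraries, with a log2 fold of 0.25 (SE 0.11) in het and 0.19 (SE 0.11) in UTRmut. Further along, Cdh22, a neuronal cadherin, was 23.0 and 25.3 CPM in WT, 24.4 and 22.1 with 1 mutant copy, and 23.3 and 24.3 with 2, so its groups overlapped. Elmo2, which helps to activate the small GTPase Rac, was 135 and 161 CPM in WT, 160 and 152 with 1 mutant copy, and 155 and 153 with 2. Slc35c2, a transporter of the Golgi, was 25.8 and 26.7 CPM in WT, 27 and 29.2 with 1 mutant copy, and 29.0 and 31.4 with 2. It was in genotype order in both sexes, at 0.10 per allele on the log2 scale.

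The remaining genes among the nearest 10 on that side were Zfp334, Slc13a3, Trp53rka, Slc2a10 and Eya2. The zinc-finger gene Zfp334 was -0.11 (SE 0.10) in UTRmut against WT on the log2 scale. Trp53rka, a kinase gene, was 0.00 (SE 0.18), and its reads may be shared with the near-identical Trp53rkb, so its value is uncertain. Slc2a10, a glucose transporter gene, and Eya2, a transcriptional coactivator with phosphatase activity, had at most 1.25 and 3.27 CPM in a library. Their folds of 0.04 (SE 0.58) and -0.38 (SE 0.40) were correspondingly imprecise.

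On the lower-coordinate side the nearest protein-coding gene is Zfp335, a zinc-finger regulator needed by neural progenitors. It was 29.6 and 28.3 CPM in WT, 33.4 and 33.1 with 1 mutant copy, and 24.6 and 28.8 with 2. Both het libraries were the highest, which gave a log2 fold of 0.20 (SE 0.12) in het and -0.12 (SE 0.13) in UTRmut against WT. Its antisense gene Zfp335os was 2.6 and 2.5 CPM in WT, 1.77 and 1.77 with 1 mutant copy, and 1.68 and 1.57 with 2, from 17 to 29 counts a library. The 3 genotypes of Zfp335os did not overlap, and its UTRmut against WT fold was -0.65 (SE 0.36). Reads of overlapping genes on opposite strands can be assigned wrongly where counting ignores strand, and the counting mode is not given in the sources used here. All 14 overlapping pairs among the flanking genes are on opposite strands, among them Pcif1 with Zfp335, Ctsa with Pltp and Snx21 with Acot8.

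Pcif1, which methylates the first adenosine of capped mRNAs, was 44.3 and 42.3 CPM in WT, 35.5 and 44.2 with 1 mutant copy, and 40.3 and 38.1 with 2 (log2 fold -0.14, SE 0.12). Ctsa, the lysosomal protease cathepsin A, was 69.8 and 66.2 CPM in WT and 64.0 and 72.8 in UTRmut, a log2 fold of 0.01 (SE 0.10; 95% interval -0.21 to 0.23). Snx21, a sorting nexin, had a fold of 0.03 (SE 0.11), Zswim1 of -0.07 (SE 0.16) and Zswim3 of -0.12 (SE 0.23). Acot8, a peroxisomal thioesterase gene, was 6.08 and 8.12 CPM in WT, 8.33 and 8.87 with 1 mutant copy, and 6.72 and 6.18 with 2. Dnttip1, a subunit of a histone deacetylase complex, was 15.5 and 14.9 CPM in WT, 12.3 and 11.7 with 1 mutant copy, and 13.4 and 14.8 with 2. Both of its het values were the lowest, with a log2 fold of -0.35 (SE 0.16) in het and -0.11 (SE 0.16) in UTRmut. Wfdc3, the 1 gene of the WFDC protease inhibitor cluster that met the count rule, was 0.52 to 1.55 CPM and gave -0.39 (SE 0.56), or 0.35 without the WT male.

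**Figure D3:**
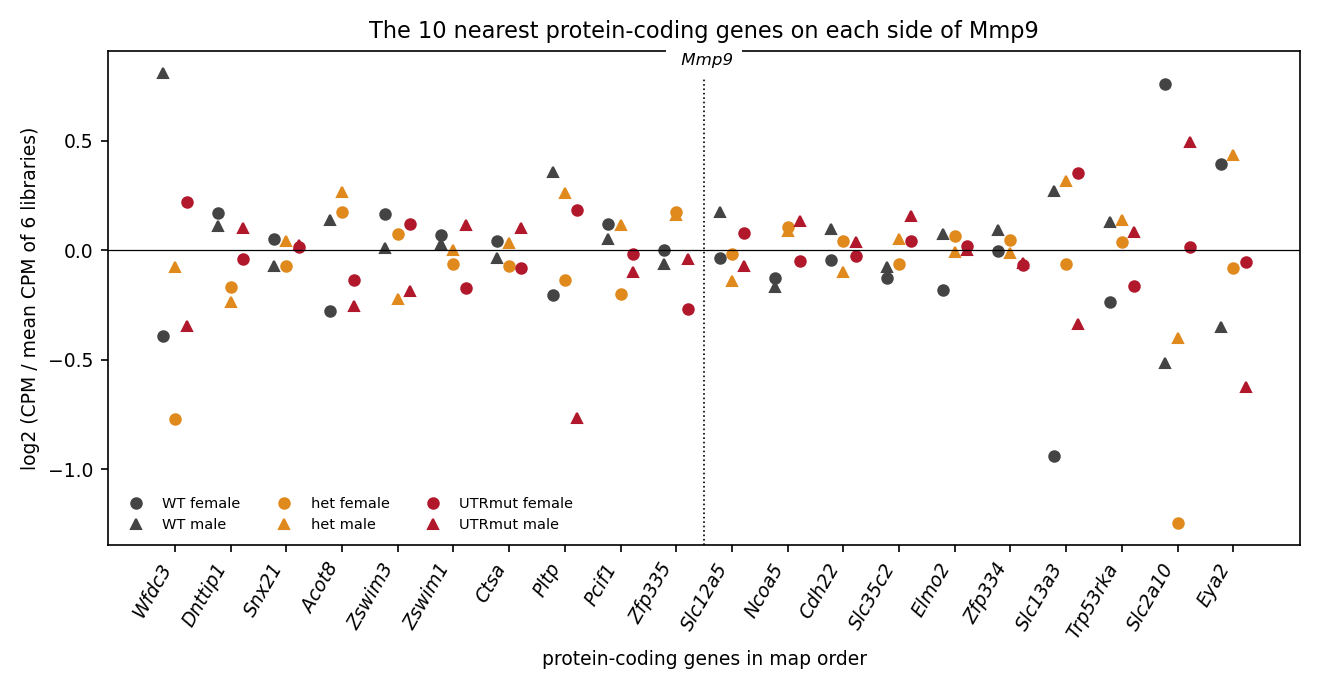
Level of the 10 nearest protein-coding genes on each side of Mmp9 in each library, as log2 of CPM over the mean of the 6 libraries; colours give the genotype, circles are females and triangles males. The abundant genes such as Slc12a5 and Ctsa stay near 0, and the scarce Wfdc3 and Slc2a10 scatter most widely.

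Dbndd2 had the smallest p of the flanking genes. It encodes a dysbindin-domain protein and lies 447 kb from Mmp9 (chr2:164486106-164493319, plus strand). It was 40.2 and 34.7 CPM in WT, 50.5 and 53.4 with 1 mutant copy, and 52.0 and 57.6 with 2. All 4 mutant libraries were above both WT libraries, while the het and UTRmut values overlapped. The means were 37.5 ± 3.89, 52.0 ± 2.08 and 54.8 ± 3.95 CPM (SD, n = 2 each). UTRmut was 1.46-fold of WT (log2 0.55, SE 0.11, 95% interval 0.31 to 0.79; adjusted p = 0.694, edgeR), with a difference of 0.37 between the females and 0.73 between the males. Het was 1.39-fold of WT (log2 0.47, SE 0.11), and UTRmut against het was 0.08 (SE 0.11, 95% interval -0.16 to 0.32), so the het mean lay closer to UTRmut than to WT. The fold of Dbndd2 per allele was 0.27 (SE 0.06; adjusted p = 0.998, edgeR).

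Dbndd2 passed in 1 alternative: with no filter on low counts its UTRmut against WT fold was 0.56 with an adjusted p of 0.00309 (edgeR), where 0.0921% of all genes passed (0.28 with an adjusted p of 0.00448 per allele, where 0.0648% passed). The adjusted p for UTRmut against WT ran up to 0.9995 over all alternatives. The UTRmut against WT fold itself was 0.46 to 0.66 over the 12 alternatives. Dbndd2 transcript is known to be abundant in oligodendrocytes, and the 8 oligodendrocyte markers summed to 3740 and 3710 CPM in WT, 3610 and 3660 with 1 mutant copy, and 2980 and 3910 with 2. In UTRmut against WT, 0 of the 8 were above 0 on the log2 scale and their median was -0.10. The part of oligodendrocyte RNA in the Dbndd2 values was not tested.

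Pigt, a subunit of the enzyme that attaches GPI anchors to proteins, starts 4.2 kb beyond the end of Dbndd2 (chr2:164497520-164508301, plus strand). It was 42.6 and 45.5 CPM in WT, 40.4 and 36.6 with 1 mutant copy, and 34.3 and 32.7 with 2. The 3 genotypes did not overlap: both het values lay between those of WT and UTRmut. The log2 fold was -0.40 (SE 0.11, 95% interval -0.64 to -0.16; adjusted p = 0.999, edgeR) in UTRmut against WT, or 0.76-fold, and -0.20 (SE 0.11) in het against WT. It was -0.31 between the females and -0.47 between the males. Over the alternatives the UTRmut against WT fold was -0.44 to -0.34, and Pigt passed in none of them.

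**Figure D4:**
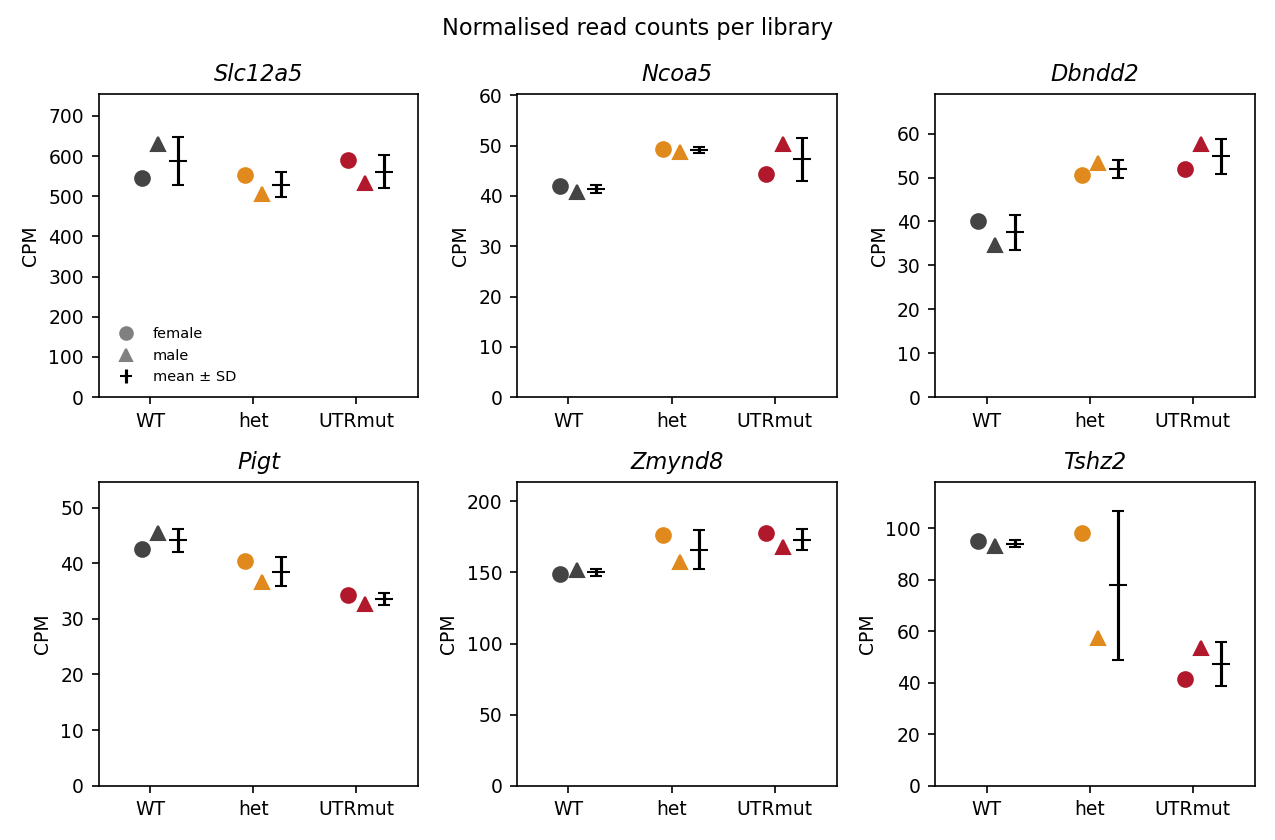
Level in CPM of Slc12a5, Ncoa5, Dbndd2, Pigt, Zmynd8 and Tshz2 in each library by genotype (circles females, triangles males), with the mean and SD of each group in black. In Dbndd2 both mutant groups lie above WT, in Pigt the genotypes descend without overlap, and in Tshz2 the het libraries are split, at 98.4 and 57.4 CPM.

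Tshz2, a teashirt zinc-finger transcription factor at the far end of the window, 4.68 Mb from Mmp9 (chr2:169633013-170071816, plus strand), had the largest fold of the 85 in UTRmut against WT. It was 95 and 93.1 CPM in WT, 98.4 and 57.4 with 1 mutant copy, and 41.4 and 53.4 with 2. The het female was as high as WT and the het male close to UTRmut. UTRmut was 0.505-fold of WT (log2 -0.99, SE 0.28, 95% interval -1.69 to -0.29; adjusted p = 0.999, edgeR). Het against WT was -0.28 (SE 0.27) and UTRmut against het -0.71 (SE 0.28). Both rested on which het library was kept: they were -0.71 and -0.27 without the het female, and 0.06 and -1.05 without the het male. Tshz2 passed in UTRmut against WT with no filter on low counts (-0.98, adjusted p = 5.59e-05, edgeR), without the het female (adjusted p = 0.00643) and without the het male (0.0107). In these 3 fits 0.0921%, 0.018% and 0.0179% of all genes passed. In UTRmut against het it passed with no filter (-0.70, adjusted p = 0.0212, edgeR), where 0.0955% of all genes did.

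Gm34294, a gene model on the opposite strand that ends 4.7 kb before Tshz2, was 1.64 and 1.04 CPM in WT, 2.19 and 0.747 with 1 mutant copy, and 1.03 and 0.783 with 2, and like Tshz2 it was highest in the het female. In cortex Tshz2 marks near-projecting neurons of layer 5. The 3 other markers of these neurons, Slc17a8, Trhr and Lypd1, summed to 90.2 and 94.4 CPM in WT, 83.0 and 87.4 with 1 mutant copy, and 77.7 and 86.0 with 2. Of these 3, 0 were above 0 in UTRmut against WT, with folds of -0.11 (SE 0.23), -0.15 (SE 0.39) and -0.18 (SE 0.10). Lypd1 made up most of the sum, at 78.9 and 86.7 CPM in WT. Slc17a8 was 7.23 and 5.61 CPM in WT and 6.16 and 5.74 in UTRmut. Trhr was 4.05 and 2.07 CPM in WT and 1.96 and 3.48 in UTRmut, so both were lower in the UTRmut female but not in the UTRmut male. On other chromosomes, the serotonin receptor gene Htr2c was 17.5 and 19.3 CPM in WT, 15.2 and 9.53 with 1 mutant copy, and 7 and 8.88 with 2 (log2 -1.21, SE 0.22). Npsr1, a neuropeptide S receptor gene, was 5.79 and 5.10 CPM in WT, 3.12 and 3.55 with 1 mutant copy, and 1.59 and 2.18 with 2 (-1.52, SE 0.31). Neither passed in UTRmut against WT, with an adjusted p of 0.388 for Htr2c and 0.694 for Npsr1 (edgeR). The markers, Htr2c, Npsr1 and Gm34294 were chosen after values were seen, and their part in the Tshz2 result was not tested.

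**Figure D5:**
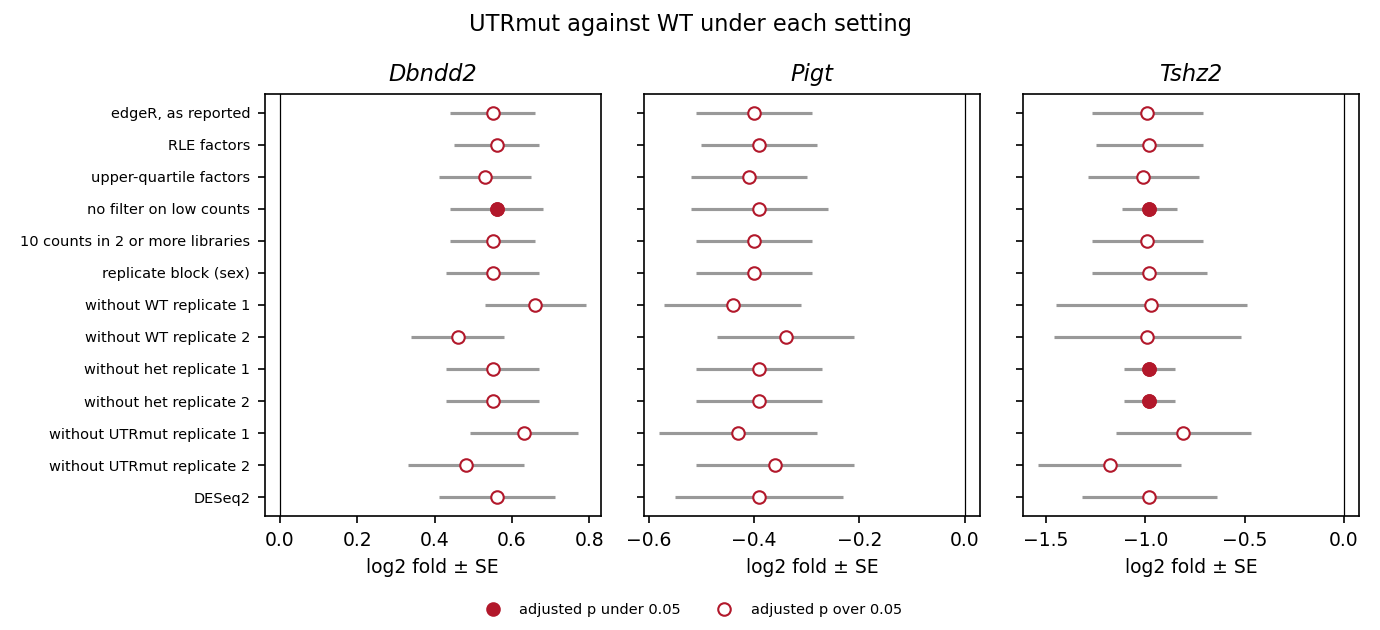
Log2 fold with SE of Dbndd2, Pigt and Tshz2, UTRmut against WT, as reported and under 12 alternatives; filled points have an adjusted p under 0.05. Over the alternatives the folds run from 0.46 to 0.66 for Dbndd2, from -0.44 to -0.34 for Pigt and from -1.18 to -0.81 for Tshz2, and filled points occur for Dbndd2 in 1 and for Tshz2 in 3.

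An effect of the allele that adds up over its copies would put the genotypes in order in each sex. Of the 85, 10 (11.8%) had WT, het and UTRmut in order in both the females and the males, against 5.76% of all genes tested and 5.54% of the rest of chromosome 2. In rising order were Ttpal, Serinc3, Dbndd2, Slc35c2, Zmynd8 and Rnf114, 6 genes (7.06%, against 2.94%). In falling order were Tox2, Pigt, Zfp335os and Atp9a, 4 genes (4.71%, against 2.82%). Those not named by the rule for naming genes, here Ttpal, Serinc3, Rnf114, Tox2 and Zfp335os, were chosen after values were seen. Zmynd8, a chromatin reader, was 149 and 152 CPM in WT, 176 and 157 with 1 mutant copy, and 178 and 168 with 2 (0.10 per allele, SE 0.04). Atp9a, a phospholipid flippase of endosomes, was 435 and 455 CPM in WT, 422 and 436 with 1 mutant copy, and 403 and 400 with 2 (-0.07 per allele, SE 0.04).

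Serinc3, a membrane protein of the serine incorporator family, was 241 and 253 CPM in WT, 249 and 262 with 1 mutant copy, and 268 and 274 with 2 (0.13 in UTRmut against WT, SE 0.08). Tox2, a transcription factor with an HMG box, was 7.91 and 5.53 CPM in WT, 7.08 and 5.14 with 1 mutant copy, and 5.42 and 4.18 with 2 (-0.48, SE 0.28). The ordered genes were spread over the window: Rnf114, a ubiquitin ligase gene, lies 2.54 Mb from Mmp9 and Atp9a 3.68 Mb. Without overlap between the 3 genotypes there were 2 falling genes, Pigt and Zfp335os (2.35%, against 0.819% of all genes), and 0 rising ones (0.838% of all genes).

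Genotype means alone were in rising order in 16 genes (18.8%, against 17.4% of all genes) and in falling order in 15 (17.6%, against 17.9%). Between UTRmut and WT alone, 14 flanking genes were higher without overlap (16.5%, against 14% of all genes) and 14 lower (16.5%, against 14.6%). Between het and WT, 10 were higher (11.8%, against 13.4%) and 12 lower (14.1%, against 13.6%). Between UTRmut and het, 16 were higher (18.8%, against 16.4%) and 13 lower (15.3%, against 17.9%). Both mutant groups lay above WT in 7 genes (8.24%, against 5.04%), among them Dbndd2, Ncoa5, Zmynd8 and the kinase gene Stk4 of the Hippo pathway. They lay below WT in 6 (7.06%, against 5.4%), among them Pigt, Dnttip1 and Zfp335os. Stk4 was 66.6 and 63.9 CPM in WT, 70.9 and 77.9 with 1 mutant copy, and 67.1 and 66.8 with 2, a log2 fold of 0.19 (SE 0.10) in het but 0.04 (SE 0.10) in UTRmut. L3mbtl1, which compacts chromatin, was 12.6 and 8.81 CPM in WT, 8.74 and 7.10 with 1 mutant copy, and 9.43 and 9.49 with 2 (het against WT -0.43, SE 0.22).

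The folds had no steady course with distance from Mmp9. Within 1 Mb, 14 of 31 genes were above 0 in UTRmut against WT with a median of -0.014. On the lower-coordinate side of it 7 of 20 were above 0 (median -0.089) and on the higher side 7 of 11 (median 0.043). Without the WT male, 10 of the 20 on the lower side were above 0 and their median was 0.01. From 1 to 2.5 Mb, 17 of 31 were above 0 with a median of 0.048, and from 2.5 to 5 Mb, 5 of 23 with a median of -0.06. Without the WT female 11 of these 23 were above 0, and without the WT male 10. Of the 15 genes 2.5 to 5 Mb away on the higher side 13 were below 0, with a median of -0.142. Without the WT female 9 of those 15 were below 0 and the median was -0.07. The median within 1 Mb was -0.07 without the WT female and 0.05 without the WT male, and that from 1 to 2.5 Mb was -0.02 and 0.15.

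By function, 0 genes of any list passed in UTRmut against WT. The 13 genes listed as ion channels, transporters and synaptic or adhesion proteins had 5 above 0 and a median of -0.02. Without the WT female 3 were above 0 (median -0.11), and without the WT male 9 (0.05). Among the 13, Rims4, a presynaptic scaffold gene, was 0.09 (SE 0.10). The 18 transcription factors, coregulators and chromatin proteins, which include Tshz2, had 6 above 0 and a median of -0.109, but 10 above 0 and a median of 0.01 without the WT female. Topoisomerase 1 (Top1) was 0.10 (SE 0.09) and the chromatin remodeller Chd6 -0.05 (SE 0.09). The 6 genes of RNA processing, decay and translation had 2 above 0 and a median of -0.013, with 0 above 0 (-0.08) without the WT female and 4 (0.08) without the WT male. The splicing factor Srsf6 was the lowest of them, at -0.19 (SE 0.11), with 76.5 and 72.5 CPM in WT and 59.4 and 71.0 in UTRmut.

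The 15 genes of trafficking, lysosome, lipid and glycan enzymes had 8 above 0 and a median of 0.008 (-0.03 to 0.09 without 1 library), with Pigt as the lowest of the well-counted members. The 15 genes of signalling, ubiquitin and cell growth had 7 above 0 and a median of -0.005, but 12 above 0 and a median of 0.11 without the WT male. Ywhab, a 14-3-3 adaptor, was 403 and 435 CPM in WT, 388 and 389 with 1 mutant copy, and 413 and 418 with 2 (-0.01, SE 0.08), and the phospholipase gene Plcg1 was 0.02 (SE 0.09). The 17 genes in no list had 8 above 0 and a median of -0.029 (-0.08 without the WT male, 0.12 without the UTRmut female). The 9 genes that are not protein-coding had a median of 0.181, with a median SE of 0.457. Rims4, Top1, Chd6, Srsf6, Ywhab and Plcg1 were named as examples after values were seen.

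The levels of the flanking genes per exonic kb, as means over the 6 libraries, had a median of 6.23 CPM per kb. Ywhab was the highest at 121, followed by Slc12a5 at 75.1, Atp9a at 71.9 and Serinc3 at 67.1. Lpin3, a lipid phosphatase gene, at 0.179 and Slc2a10 at 0.207 were the lowest. The gene closest to Mmp9 was thus among the most abundant of the window on this scale.

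The change per mutant allele differed between the sexes in 3 of the 85 genes (3.53%) at an adjusted p under 0.05 (edgeR, 2 residual degrees of freedom), against 1.2% of all genes tested. Each combination of genotype and sex is 1 library, so a sex difference cannot be told apart from differences between single libraries. The 3 genes are Slc13a3, Znfx1 and Prex1, and in each the change was more negative in males than in females. Slc13a3, a dicarboxylate transporter, was 5.11 CPM in the WT female and 12.5 in the UTRmut female, with 9.37 in the het female. In the males it was 11.8 in WT, 12.2 in het and 7.75 in UTRmut. Its difference was -0.92 per allele (SE 0.19; adjusted p = 0.0232, edgeR), and it did not pass without the WT female (adjusted p = 0.501), without the UTRmut female (0.163) or without the UTRmut male (0.357). The 6 meningeal markers summed to 351, 523 and 585 CPM in the WT, het and UTRmut females and to 435, 733 and 322 CPM in the males, and 3 of the 6 were above 0 in UTRmut against WT. Ptgds made up most of these sums, at 309, 469 and 525 CPM in the females and 344, 660 and 269 in the males. Like it, Dcn, Aldh1a2 and Slc22a6 were highest in the het male. Col1a1 and Col1a2 were highest in the WT male, at 32.6 and 41.1 CPM, against 10.9 and 37.4 in the het male. Pltp, a phospholipid transfer protein, was 9.64, 10.1 and 12.6 CPM in the females and 14.2, 13.3 and 6.53 in the males. Ptgis, prostacyclin synthase, named after its values were seen, was highest in the het male at 3.27 CPM, where the meningeal sum was highest, and 0.675 to 1.21 CPM elsewhere. The part of meningeal RNA in Slc13a3, Pltp and Ptgis was not tested.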

How the data were processed

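The authors deposited 1 table of raw read counts per Ensembl gene, with 6 libraries as columns and no normalisation. The build GRCm38 and the tools HTSeq 0.6.0, HISAT2, Trimmomatic 0.39 and GATK 4.2.3.0 are named in the submitters' processing notes. Not given in the sources used here are the annotation release and whether counting used strand. Positions, classes and symbols came from GENCODE M21 for 55227 gene identifiers; 260, with 0.0162% of counts, had none.

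Genes were kept by filterByExpr by genotype (minimum count 10, minimum total 15), scaled by TMM and tested with edgeR 4.0.16 (R 4.3.3, robust quasi-likelihood F test) on all 6 libraries, with genotype as a factor or the number of mutant alleles as a number, and with its interaction with sex. Benjamini-Hochberg adjustment ran over all 16119 genes. The SE of a log2 fold was its size over the root of the F statistic. The scripts were tested on simulated data. CPM is TMM-scaled; floors of 3 counts and intervals (95%) cover counting error or the fitted spread only. DESeq2 1.42.0, other scalings, filters, windows, a replicate block and leaving out each library were alternatives.

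The rule named Slc12a5, Dbndd2 and the 10 nearest protein-coding genes each side. It also named, in each direction and comparison, the 3 smallest p among genes whose groups did not overlap on the log2 CPM scale. For the change per allele it took genes whose genotype means were in order. For genes named by their p, lack of overlap or order was thus a condition of being named. The genes, lists and comparisons were chosen with earlier results of these data known. Lists were described by counts and medians, without a test.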

Additional observations from a re-analysis of the deposited data

Results flagged for a closer look

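In 3 flanking genes the change per mutant allele differed between males and females by a test of that difference (edgeR, adjusted over all genes). The male minus female difference in log2 change per allele was -0.92 for Slc13a3 (SE 0.19, adjusted p = 0.0232), -0.35 for Znfx1 (SE 0.08, adjusted p = 0.0357) and -0.31 for Prex1 (SE 0.07, adjusted p = 0.0319). Znfx1, an RNA helicase-family gene, was 76.8, 81.5 and 97.2 CPM in the WT, het and UTRmut females and 101, 81.5 and 79.6 CPM in the males. Prex1, an activator of Rac, was 138, 162 and 176 CPM in the females and 175, 152 and 146 CPM in the males. With 1 library for each combination of genotype and sex, a sex difference cannot be told apart from differences between single libraries. Prex1 did not pass without the WT female (adjusted p = 0.551, edgeR), the WT male (0.683) or the UTRmut female (0.216). Znfx1 did not pass without the WT female (adjusted p = 0.281, edgeR), the WT male (0.858) or the UTRmut female (0.615).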

How the results depend on the processing

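With no filter on low counts, 2 flanking genes passed in UTRmut against WT (Dbndd2 and Tshz2, where 0.0921% of all genes passed). In UTRmut against het 1 passed (Tshz2, -0.70, adjusted p = 0.0212, edgeR, where 0.0955% of all genes did). Per allele 1 passed (Dbndd2, 0.28, adjusted p = 0.00448, edgeR, where 0.0648% of all genes did). Leaving out 1 library gave medians of -0.048 to 0.052 in UTRmut against WT. In het against WT they were -0.066 to 0.03, and per allele -0.012 to 0.025. All were lowest without the WT female and highest without the WT male. The difference between the sexes was called in 5 flanking genes with upper-quartile factors (1.35% of all genes), 7 with no filter (2.05%) and 0 to 8 without 1 library (0 without the WT female, where 0.0959% of all genes were called, or the UTRmut female, 0.511%, 5 without the UTRmut male, 2.45%, and 8 without the het male, 4.37%); these alternatives for the sex difference were chosen after seeing the data. Same-numbered libraries are of the same sex, and the labels do not state whether they also shared a litter. They deviated together with correlations of 0.295 (WT and het), 0.08 (WT and UTRmut) and 0.196 (het and UTRmut) over genes. The main fit did not pair them, and what they share besides sex was not tested. With the replicate block, 0 flanking genes passed in each of the 4 comparisons, against 0.0248%, 0.0186%, 0.031% and 0% of all genes. The median of the flanking genes in UTRmut against WT was then -0.013. Of 112 results for the 28 named genes, 55 passed in no alternative and kept their sign, 53 passed in none but changed sign in at least 1, and 4 passed in an alternative; the cause was not tested. Depth limits the genes with few counts, whose intervals are wide, and Mmp9 itself.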
